A study of Drosophila melanogaster with 8 samples.

Results

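The cuticle protein genes of the fly were taken as every row of the expression table whose symbol begins with Cpr, Lcp, Ccp84, Edg, Twdl or Pcp. This took 122 of 15240 rows. The row Cpr itself is the gene of NADPH-cytochrome P450 reductase, an enzyme that passes electrons to P450 proteins, and it was kept apart, which left 121 cuticle protein genes. RNA from whole heads of socially naive Drosophila melanogaster adults, aged 6 days, had been sequenced, with about 90 heads in a sample. The 4 groups were Bully flies raised at 25C, Bully flies raised at 19C, CantonS flies raised at 25C and CantonS flies raised at 19C, with 2 libraries in each. CantonS is the wild-type line Canton-S, and Bully is a hyper-aggressive line of Canton-S background, so the comparison of lines is between 2 stocks and not between flies with and without 1 allele. The labels do not give the sex of the flies. In bulk heads, fewer cells of a type and less RNA per cell cannot be told apart.

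The cuticle is the outer skeleton of an insect, a layer of chitin fibres held in a matrix of proteins that the epidermis secretes. Most cuticle proteins of the Cpr, Lcp, Ccp84 and Edg families carry the Rebers and Riddiford consensus, a stretch that binds chitin, while the Tweedle proteins (Twdl) form a separate family. Much of the cuticle is laid down in pulses around each moult, and the adult then keeps adding layers for some days. The head also holds a special cuticle, the corneal lens of each facet of the eye, which is built from a few proteins of its own.

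Values are RPKM, a read number scaled to gene length and library size. They were tested on log2(RPKM + 0.5) with limma, fitted across the 8480 genes that averaged 1 RPKM or more, and each difference of 2 groups below is on that scale. This scale understates the change of genes with low values. A gene is said to be higher or lower, or to have passed, where its p-value adjusted by Benjamini-Hochberg over all tested genes was below 0.05. Letters a and b only name the 2 libraries within a group, and values run a before b. Per gene, the values of each group stand for n = 2. The p-values rest on a spread between libraries that was pooled over the 4 groups and drawn toward that of all tested genes. Effective library sizes, worked out from the steps between RPKM values, lay between 79.9 and 114.8 M reads (M, mega) in Bully and between 47.6 and 117.8 M reads in CantonS, lowest in CantonS 25C a. For a 1 kb gene, each read added 0.00849 to 0.0210 RPKM. Head tissue was evident in every library, with ninaE, the main rhodopsin gene, at 4950 to 8900 RPKM. Genes of testis, ovary follicle and midgut summed to at most 2.68 RPKM over each list, and those of the male accessory gland to at most 9.16 RPKM. The testis list stood highest in Bully 19C, at 2.37 and 2.68 RPKM, against 0.0715 to 0.731 RPKM in the other groups.

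Most cuticle protein genes were close to silent in these heads. Only 19 of the 121 (15.7%) reached a mean of 1 RPKM and were tested, against 55.6% of all rows in the table. The median cuticle protein gene had a mean of 0.0448 RPKM, against 1.74 RPKM over all rows. At the low end, 12 genes were listed at 0 in all 8 libraries, and 58 of the 102 genes below the threshold stayed under 0.1 RPKM in every library. Just above the threshold lay TwdlT with a mean of 1.25 RPKM and TwdlG with 1.37 RPKM, and just below it TwdlE with 0.72 RPKM and Cpr47Ef with 0.70 RPKM. Of the low genes, 5 (TwdlE, Cpr47Ef, Cpr49Ab, Cpr64Ac and Lcp65Ac) still reached 1 RPKM in some library, the highest at 1.33 RPKM. The exons of TwdlE overlap those of lectin-28C on the opposite strand, which had a mean of 13.3 RPKM.

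**Figure D1:**
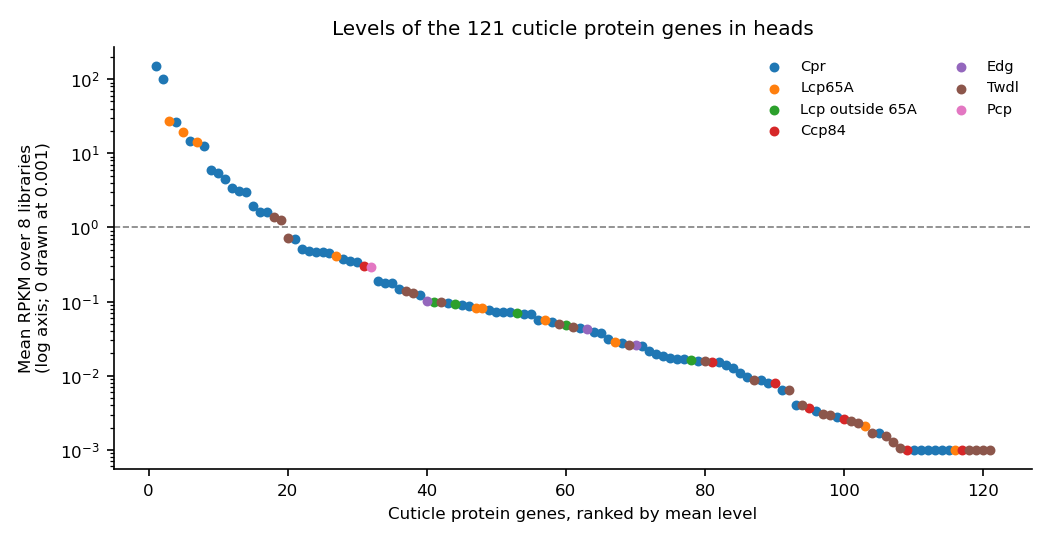
Mean RPKM over the 8 libraries (log axis) of the 121 cuticle protein genes, ranked from high to low and coloured by family, with genes at 0 drawn at 0.001 and a dashed line at 1 RPKM. Of the 121 genes, 19 lie above the line and 2 lie above 100 RPKM.

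The families differed in how many members passed that threshold. Of 70 Cpr genes, named for the Rebers and Riddiford consensus, 14 were tested. Of the 10 larval cuticle protein genes at 65A, 3 were tested, and of 25 Tweedle genes, which affect body shape when mutated, 2 were tested. None of the other 5 Lcp genes, the 7 Ccp84 genes, the 3 ecdysone-dependent Edg genes or the pupal cuticle gene Pcp was tested, and their highest value in any library was 0.51 RPKM. By position in the BDGP6 annotation, which is not the build of the files and from which no coordinates are given, 46 of the genes lie on 3L, 33 on 3R, 27 on 2R, 8 on X and 7 on 2L. Tested genes numbered 9 on 3L, 6 on 2R, 3 on 3R and 1 on X.

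A pair of genes made up much of the cuticle protein message. Cpr65Au had 138 and 162 RPKM at 25C and 154 and 167 at 19C in Bully, against 130 and 149 at 25C and 114 and 183 at 19C in CantonS. The groups overlapped for this gene. Cpr72Ec, which encodes a protein of the corneal lens, had 143 and 107 RPKM at 25C and 135 and 197 at 19C in Bully, against 26.7 and 57.1 at 25C and 71.5 and 71.8 at 19C in CantonS. All 4 Bully libraries lay above all 4 CantonS libraries for Cpr72Ec. Together these 2 genes held 70.8% and 68.5% of the summed cuticle protein RPKM in Bully 25C and 71.2% and 74.6% in Bully 19C, against 49.5% and 51.8% in CantonS 25C libraries and 51.2% and 50.4% in CantonS 19C libraries. The sum itself was 396 and 393 RPKM at 25C and 406 and 488 at 19C in Bully, against 316 and 397 at 25C and 362 and 506 at 19C in CantonS. The summed level therefore overlapped between the lines at both temperatures, while the make-up did not.

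The lines differed in both directions. In the comparison of Bully with CantonS averaged over the 2 temperatures, 2 of the 19 tested cuticle protein genes were higher and 6 were lower in Bully, against a background of 8.79% of all tested genes called (4.38% higher, 4.41% lower). The higher ones were Cpr72Ec and Cpr60D. The lower ones were Lcp65Ag1, Lcp65Ag2, Lcp65Ag3, Cpr49Ag, Cpr51A and Cpr57A. The exons of Cpr57A overlap those of Obp57d, and the values of these genes cannot be told apart. The counts of lower genes among the 19, here and at each temperature, include Cpr57A. All 4 Bully libraries lay above all 4 CantonS libraries for 2 of the 19 genes and below for 6, where the background was 7.05% of tested genes above and 6.33% below. These were the called genes except Cpr51A, whose libraries overlapped, together with Cpr67B, which was not called. The 3 Lcp65Ag genes share reads, and with them summed into 1 gene, an alternative chosen after the data were seen, 2 were higher and 4 lower on average, 1 higher and 3 lower at 25C, and 0 higher and 4 lower at 19C. The median difference of the 19 genes was 0.13, against -0.0012 over all tested genes, so the group as a whole lay close to the median of all genes.

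At 25C, 1 cuticle protein gene was higher and 5 were lower in Bully, against a background of 3.03% called (1.86% higher, 1.17% lower), with a median difference of 0.10 over the 19 genes and 0.05 over all genes. With no filter on low values, 0 of these 6 genes passed at 25C, and with only the 25C libraries in the fit 3 did. At 19C, 0 were higher and 6 were lower, against a background of 11.5% (3.44% higher, 8.07% lower), with medians of -0.02 and -0.05. With no filter, 3 of these 6 passed at 19C. At an unadjusted p below 0.05, limma gave 1 gene higher at 19C, Cpr72Ec, and 9 lower, with 31.0% of all tested genes past that value. The split at 19C moved with the scaling. It became 3 higher and 5 lower once each library's trend with gene length was removed, and 1 higher and 6 lower after median-of-ratios rescaling. The length trend set 1 library apart. The 20% of tested genes with the fewest exon bases had a median deviation from their own means of 0.40 in CantonS 19C b, and of -0.22 to 0.10 in the others, and the tested cuticle protein genes were short, with a median of 1010 exon bases against 2127 for all tested genes. The same library had elav, a neuronal gene, at 1.43 RPKM, against 3.04 to 4.24 RPKM in the others. Hemocyte marker genes moved at 19C too, with 4 of 8 tested higher in Bully and a summed level of 80.8 and 94.3 RPKM in Bully 19C, against 51.7 and 54.4 in CantonS 19C. Of 5 tested fat body markers, 2 were higher in Bully at 25C and 1 at 19C, with a summed level of 341 to 625 RPKM in Bully and 248 to 340 RPKM in CantonS. The part of these markers in the cuticle results was not tested.

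**Figure D2:**
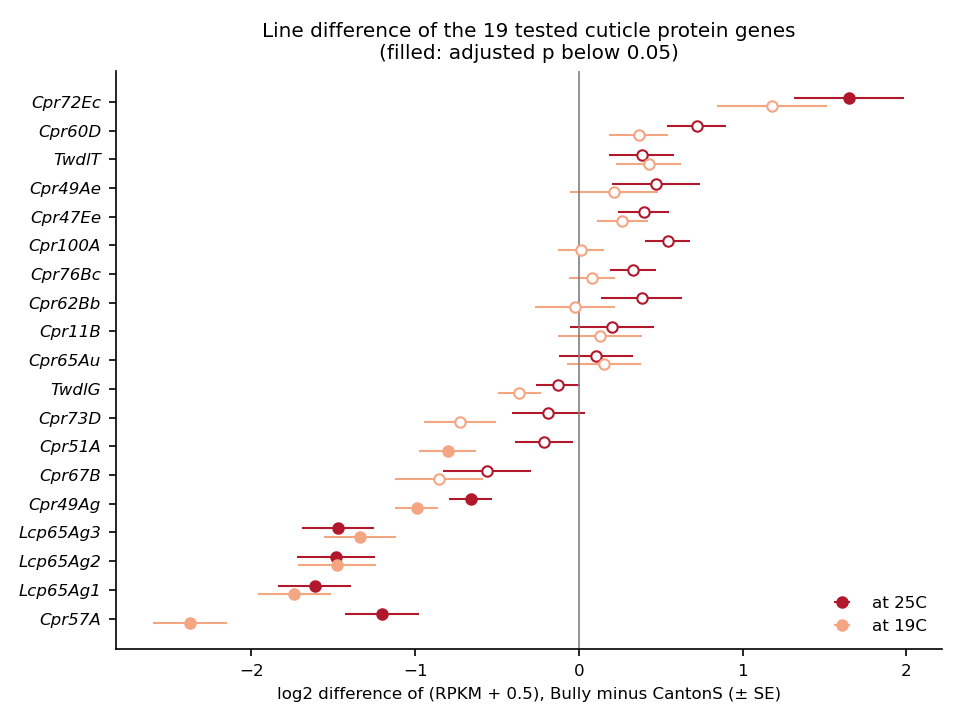
Difference of log2(RPKM + 0.5), Bully minus CantonS, with its standard error for the 19 tested cuticle protein genes at 25C and at 19C, ordered by the average over temperatures (filled points: adjusted p below 0.05). Lcp65Ag1, Lcp65Ag2, Lcp65Ag3, Cpr49Ag and Cpr57A lie below 0 with filled points at both temperatures, and Cpr72Ec lies farthest above 0.

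The Lcp65Ag genes were lower in Bully at both temperatures. They are close copies of an adult-expressed larval cuticle protein gene that lie close together on 3L. Lcp65Ag1 had 13.4 and 12.1 RPKM at 25C and 11.6 and 13.9 at 19C in Bully, against 34.7 and 45.8 at 25C and 35.2 and 53.9 at 19C in CantonS. Lcp65Ag2 had 10.7 and 8.49 RPKM at 25C and 9.29 and 11.2 at 19C in Bully, against 23.1 and 32.9 at 25C and 23.9 and 35.7 at 19C in CantonS. Lcp65Ag3 had 7.83 and 6.10 RPKM at 25C and 7.30 and 8.66 at 19C in Bully, against 17.1 and 23.5 at 25C and 17.4 and 25.0 at 19C in CantonS. For each copy every Bully library lay below every CantonS library, and the 2 temperatures overlapped within each line.

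Averaged over temperatures, Lcp65Ag1 differed by -1.68 (SE 0.16, limma adjusted p = 3.94e-04), Lcp65Ag2 by -1.48 (SE 0.17, adjusted p = 0.00114) and Lcp65Ag3 by -1.40 (SE 0.16, adjusted p = 0.00106). In group means, Lcp65Ag1 was 3.17 times as high in CantonS as in Bully at 25C and 3.49 times at 19C. At 25C the differences were -1.61, -1.48 and -1.47 for copies 1, 2 and 3, with adjusted p of 0.0073, 0.0145 and 0.0108. At 19C they were -1.74, -1.48 and -1.34, with adjusted p of 0.00312, 0.00908 and 0.0101. The averaged calls held under every alternative run. The 25C calls of all 3 copies were lost with no filter and without Bully 25C a or Bully 25C b, and those of copies 2 and 3 also without CantonS 25C b. At 19C, copies 2 and 3 lost their calls with no filter and without Bully 19C a, while Lcp65Ag1 kept its call throughout.

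How reads were split between the copies is uncertain. The values of the 3 genes came in steps of 0.5 of a read, as they do where a read is shared between a pair of matching places. Sharing with places outside these copies was not tested. The summed level of the copies was 31.9 and 26.7 RPKM at 25C and 28.2 and 33.7 at 19C in Bully, against 74.9 and 102 at 25C and 76.5 and 114.6 at 19C in CantonS. Fitted as 1 gene, a choice made after the data were seen, the sum differed by -1.57 at 25C (limma adjusted p = 0.00997) and by -1.59 at 19C (adjusted p = 0.00612). The order among the copies was the same in all 8 libraries, with Lcp65Ag1 highest and Lcp65Ag3 lowest. An antisense RNA gene overlaps Lcp65Ag3 and Cpr65Au in the annotation, and whether counting used strand is not given in the sources used here.

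The 65A region let neighbouring cuticle protein genes be compared. In the annotation it holds 17 of them, 10 Lcp65A and 7 Cpr65A genes, and Cpr65Au lies between Lcp65Ag3 and Lcp65Ag2. Cpr65Au did not pass in any of the 7 comparisons, with a difference of 0.10 at 25C (95% interval -0.42 to 0.62, limma adjusted p = 0.854) and of 0.15 at 19C (95% interval -0.37 to 0.67, adjusted p = 0.687). Its sign was not stable. With the length trend removed it was -0.01 at 25C and 0.65 at 19C, where the gene then passed (adjusted p = 0.0317). At 19C it lay between -0.19 and 0.50 as each library was left out. The RPKM of Cpr65Au was 10.3 to 13.4 times that of Lcp65Ag1 in the Bully libraries and 3.23 to 3.75 times in the CantonS libraries.

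Farther along the region the levels were low. Lcp65Ac had 0.200 and 0.235 RPKM at 25C and 0.207 and 0.149 at 19C in Bully, against 0.250 and 0.594 at 25C and 0.368 and 1.33 at 19C in CantonS. Lcp65Ab1 and Lcp65Ab2, a pair of near-identical genes, had 0 reads in all 4 Bully libraries, where a count of 0 allows up to 3 reads per library. In CantonS each of them had 3 and 6 reads at 25C and 12.5 and 3 reads at 19C, with the same read number for both copies in every library. Lcp65Ad was listed at 0 in all 8 libraries. The Bully libraries lay below the CantonS libraries with no overlap for 6 of the 17 genes of the region, which were the Lcp65Ag copies, Lcp65Ac, Lcp65Ab1 and Lcp65Ab2. Over the whole table this held for 6.33% of tested genes and 3.65% of genes below 1 RPKM. The 3 Lcp65Ag copies share reads, so the 6 genes are not 6 separate observations. The values of Lcp65Ab1 and Lcp65Ab2 also came in steps of 0.5 of a read and were equal in read number, so the pair is not 2 separate observations, here or among the low genes.

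**Figure D3:**
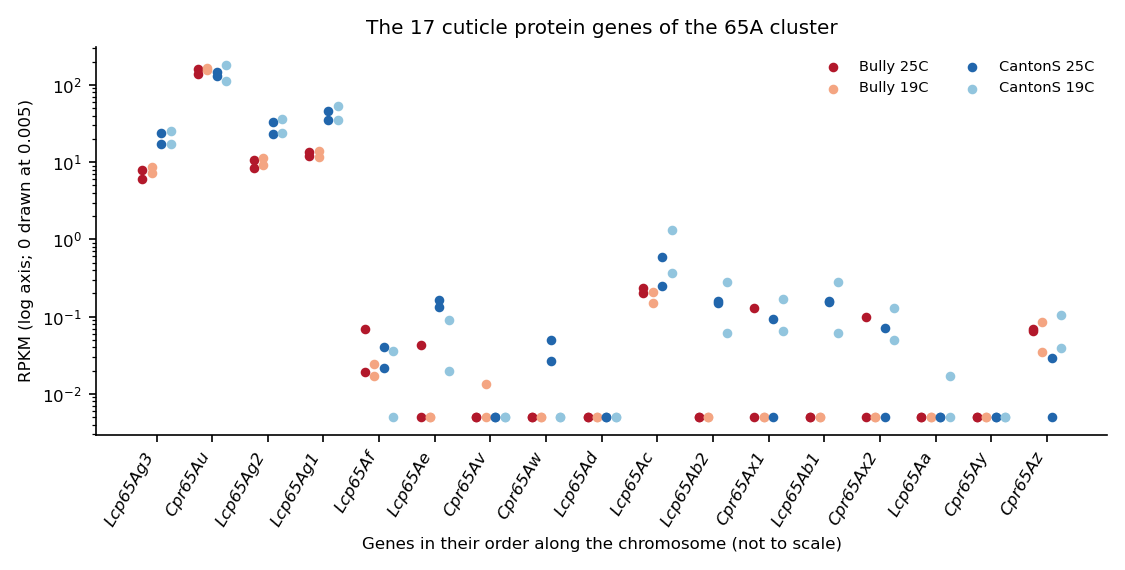
RPKM (log axis, 0 drawn at 0.005) of the 17 cuticle protein genes of the 65A region in each of the 8 libraries, in their order along the chromosome and not to scale, with groups by colour. Cpr65Au sits at 114 to 183 RPKM in all groups, while Lcp65Ag1, Lcp65Ag2 and Lcp65Ag3 on either side of it are lower in every Bully library than in every CantonS library.

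Cpr72Ec moved the other way. At 25C it was higher in Bully by 1.65 (SE 0.34, limma adjusted p = 0.0388), and its group mean was 125 ± 25.3 RPKM in Bully 25C against 41.9 ± 21.6 in CantonS 25C (SD, n = 2 each). At 19C the means were 166 ± 44.4 RPKM in Bully and 71.6 ± 0.22 in CantonS, and the difference of 1.18 (SE 0.34) did not pass (adjusted p = 0.057). The average over temperatures was 1.42 (SE 0.24, adjusted p = 0.00801). The difference between the temperatures in this line effect was 0.47 and did not pass in the interaction test (adjusted p = 0.566). The 25C call was lost with no filter and with only the groups compared. It was also lost without either Bully 25C library, without CantonS 25C a and without either CantonS 19C library. The averaged call was lost with no filter on low values (adjusted p = 0.0628) and under no other alternative.

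Other lens protein genes were measured beside it. Retinin, a major protein of the corneal surface, had 1468 and 1806 RPKM at 25C and 1101 and 1451 at 19C in Bully, against 902 and 754 at 25C and 686 and 870 at 19C in CantonS. All Bully libraries lay above all CantonS libraries. Averaged over temperatures retinin was higher in Bully by 0.85 (SE 0.16, limma adjusted p = 0.0128), and the differences of 0.98 at 25C and 0.71 at 19C did not pass (adjusted p = 0.059 and 0.0734). The averaged call of retinin was lost with no filter and without Bully 19C b or Bully 25C b, where the adjusted p reached 0.0954. Crystallin (Crys, listed in the table as Cry), another lens protein, had 0.228 to 0.317 RPKM in Bully and 0.267 to 0.404 RPKM in CantonS. Cpr66D, a further lens cuticle protein, had 0.247 to 0.411 RPKM in Bully and 0.267 to 0.50 RPKM in CantonS. Both were below the threshold and overlapped between the lines. The list of corneal lens genes thus had 2 of 4 members tested, and both were higher in Bully on average, against 4.38% of all tested genes. Cpr72Ec is also among the cuticle protein genes counted above, and the list was chosen with earlier results of these data known. The count is therefore no separate result about lens genes.

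Some photoreceptor markers differed between the lines as well. Of 8 head tissue markers, all tested, 2 were higher and 1 was lower in Bully at 25C, 0 were higher and 1 was lower at 19C, and 3 were higher and 1 was lower on average. Over all tested genes, 1.86% were higher and 1.17% lower at 25C, 3.44% and 8.07% at 19C, and 4.38% and 4.41% on average. Their summed level was 10341 and 10575 RPKM at 25C and 7896 and 7038 at 19C in Bully, against 6836 and 7189 at 25C and 6079 and 8442 at 19C in CantonS. Most of this sum was ninaE, at 4950 to 8900 RPKM, and neither ninaE nor Rh3 was called between the lines. Rh6 and Rh4, rhodopsins of the inner photoreceptors, were higher in Bully on average by 0.84 and 0.81 (adjusted p = 0.00282 and 0.0114), and Rh5, another of them, was lower, at -0.91 (adjusted p = 0.00169). The other marker higher on average was the neuronal gene n-syb (0.42, limma adjusted p = 0.0476). The part of these markers in the Cpr72Ec and retinin differences was not tested.

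**Figure D4:**
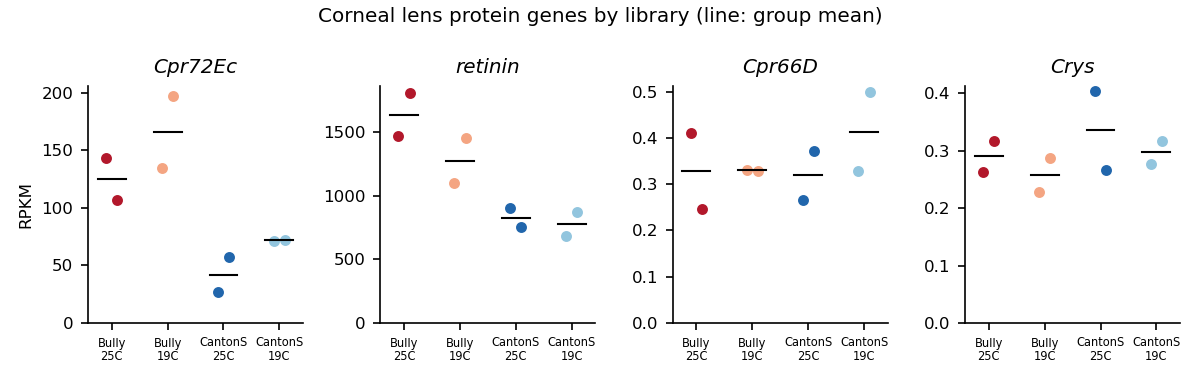
RPKM by library of 4 corneal lens protein genes in Bully 25C, Bully 19C, CantonS 25C and CantonS 19C, with a line at each group mean and an axis from 0 for each gene. Cpr72Ec and retinin are higher in all 4 Bully libraries than in all 4 CantonS libraries, and Cpr66D and Crys stay at or below 0.50 RPKM throughout.

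Cpr57A had the largest line difference of the tested cuticle protein genes at 19C. It had 1.82 and 1.93 RPKM at 25C and 1.53 and 1.41 at 19C in Bully, against 3.72 and 6.53 at 25C and 8.52 and 11.0 at 19C in CantonS. The lines did not overlap. The difference was -1.20 at 25C (SE 0.23, limma adjusted p = 0.0271). At 19C it was -2.37 (SE 0.23, adjusted p = 8.30e-04). The 25C call was lost with no filter, with only the groups compared, and without either Bully 25C library or CantonS 25C b. The 19C call held throughout. The 2 differences were 1.17 apart, which did not pass in the interaction test (SE 0.32, adjusted p = 0.107). The exons of Cpr57A overlap those of Obp57d, an odorant binding protein gene on the same strand, and the ratio of Cpr57A to Obp57d was 1.49 to 1.54 in every library. The values of the 2 genes can therefore not be told apart.

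Cpr49Ag and Cpr51A, a pair of genes with the chitin-binding consensus, were lower in Bully and were the cuticle protein genes that passed for temperature in CantonS. Cpr49Ag had 1.75 and 1.88 RPKM at 25C and 2.44 and 2.94 at 19C in Bully, against 3.17 and 3.15 at 25C and 5.35 and 6.34 at 19C in CantonS. Within each line the 25C libraries lay below the 19C libraries, and within each temperature Bully lay below CantonS. The line difference was -0.66 at 25C (SE 0.13, limma adjusted p = 0.0363). At 19C it was -0.99 (SE 0.13, adjusted p = 0.00407), and on average -0.83 (adjusted p = 0.00114). The 25C call was lost under 8 of 15 alternatives, among them leaving out any library of Bully or of CantonS 25C (adjusted p up to 0.191). The 19C call was lost without Bully 19C a (0.0542), and its size was -0.55 once the length trend was removed. The averaged call held throughout.

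Cpr51A had 10.1 and 9.10 RPKM at 25C and 9.93 and 11.3 at 19C in Bully, against 10.4 and 12.0 at 25C and 15.9 and 22.4 at 19C in CantonS. The CantonS 19C libraries stood above the rest. The line difference was -0.80 at 19C (SE 0.18, limma adjusted p = 0.0252) and -0.21 at 25C, which did not pass (adjusted p = 0.576). The interaction of 0.59 did not pass (adjusted p = 0.199). The 19C call was lost without either of the Bully 19C libraries and without CantonS 19C b, with no filter, with only the groups compared, and with the length trend removed, where its size was -0.36 (adjusted p up to 0.169 over its alternatives).

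Cpr60D, another gene of the consensus family, was the second gene higher in Bully on average. It had 3.58 and 3.41 RPKM at 25C and 3.36 and 4.73 at 19C in Bully, against 1.60 and 2.30 at 25C and 2.97 and 3.0 at 19C in CantonS. The average difference was 0.54 (SE 0.13, limma adjusted p = 0.0338). Neither temperature passed by itself, with 0.72 at 25C (adjusted p = 0.0833) and 0.37 at 19C (adjusted p = 0.206). The averaged calls of Cpr60D and Cpr51A were each lost under 7 alternatives, 6 of them the leaving out of 1 library, with adjusted p up to 0.138 and 0.164. For Cpr60D these were all libraries but Bully 19C a and CantonS 25C b, and for Cpr51A they were all Bully and all CantonS 25C libraries.

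**Figure D5:**
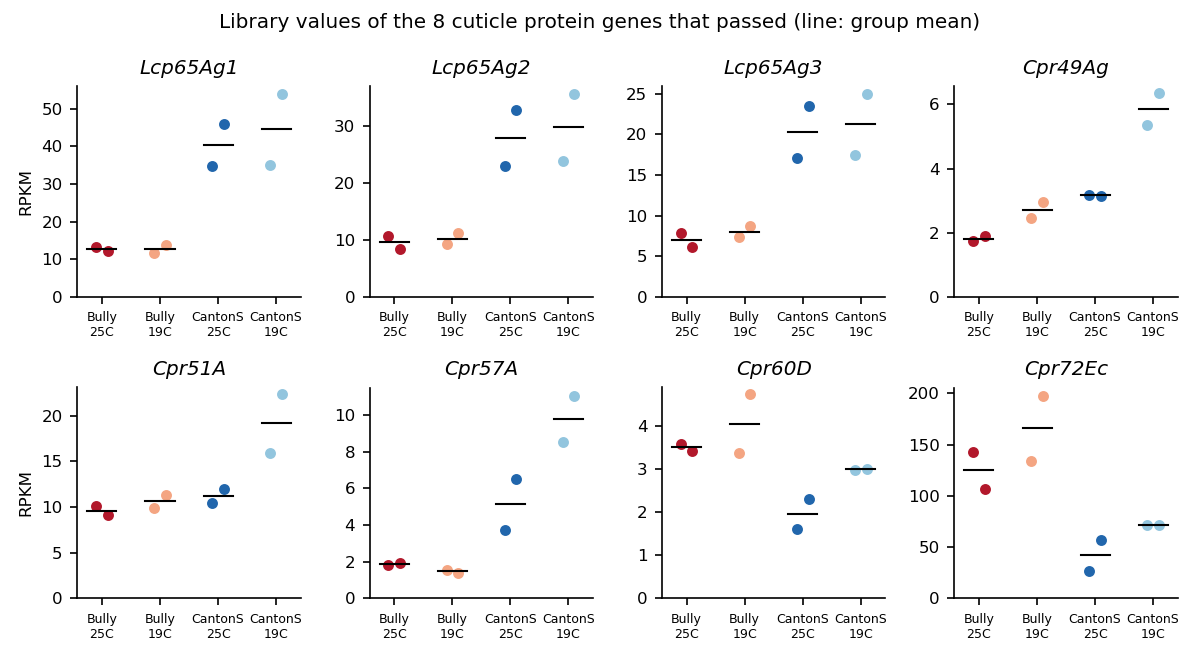
RPKM by library of the 8 cuticle protein genes that passed in at least 1 comparison, in Bully 25C, Bully 19C, CantonS 25C and CantonS 19C, with a line at each group mean and an axis from 0 for each gene. Every Bully library lies below every CantonS library for the Lcp65Ag genes, Cpr49Ag and Cpr57A, and above for Cpr60D and Cpr72Ec, while Cpr51A overlaps.

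The other 11 tested genes did not pass in any comparison. The best expressed of them after Cpr65Au was Cpr49Ae, with 24.9 and 32.5 RPKM at 25C and 32.1 and 27.2 at 19C in Bully, against 26.6 and 15.5 at 25C and 21.5 and 30.02 at 19C in CantonS. Its difference was 0.47 at 25C (95% interval -0.14 to 1.09, limma adjusted p = 0.413) and 0.21 at 19C (adjusted p = 0.624), and the value at 19C ran from -0.02 to 0.45 as each library was left out. Cpr67B had 10.5 and 10.7 RPKM at 25C and 10.4 and 12.0 at 19C in Bully, against 12.4 and 20.2 at 25C and 16.0 and 26.5 at 19C in CantonS. Its libraries did not overlap between the lines, yet the difference of -0.71 on average missed the threshold (adjusted p = 0.0551). Cpr73D overlaps a far more abundant gene on the opposite strand, Ogdh, which the table lists as Nc73EF with a mean of 54.4 RPKM, and its difference was -0.73 at 19C (adjusted p = 0.0668). Without strand, reads of these 2 genes could not be told apart. The remaining 7 tested genes with no call were Cpr11B, Cpr47Ee, Cpr62Bb, Cpr76Bc, Cpr100A and the Tweedle genes TwdlG and TwdlT, with means of 1.25 to 5.88 RPKM.

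For rearing temperature, cuticle protein genes were called in CantonS only. In Bully, and on average over the lines, few of all tested genes were called. In CantonS, 0 of 19 were higher and 2 were lower at 25C than at 19C, against a background of 6.42% called (1.06% higher, 5.35% lower). Cpr49Ag differed by -0.79 (SE 0.13, limma adjusted p = 0.0375) and Cpr51A by -0.73 (SE 0.18, adjusted p = 0.0492). At an unadjusted p below 0.05, limma gave 0 higher and 7 lower, with 31.9% of all tested genes past that value. The median difference of the 19 genes was -0.31, against -0.11 over all genes. Median-of-ratios rescaling, which moved the median of all genes to 0.01, left 0 cuticle protein genes called, and so did removing the length trend. Over all genes these 2 settings left 0 called as well, against 544 before. Leaving out any Bully library, CantonS 19C b or CantonS 25C a left 0 cuticle protein genes and 0 to 8 of all genes called. Without CantonS 19C a 5 were called among 2263 of all genes, and without CantonS 25C b 4 were called among 955, all of the cuticle protein genes being lower at 25C. Hemocyte markers were higher at 25C in CantonS for 5 of 8 tested, at a summed 103 and 74.1 RPKM in CantonS 25C against 51.7 and 54.4 in CantonS 19C, and their part was not tested.

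In Bully, limma called 0 of 19 cuticle protein genes for temperature, against 0.0236% of all tested genes, and 2 had an unadjusted p below 0.05, against 3.21% of all tested genes. The average over lines gave 0 calls, against 0.0825%, and 6 at an unadjusted p below 0.05, against 11.9%. The interaction of line and temperature gave 0 calls, against 0%, and 3 at an unadjusted p below 0.05, against 23.8%. Without CantonS 19C a, 3 genes were called in the average over lines (314 of all genes) and 1 in the interaction (903 of all genes), and 1 was called in the interaction without CantonS 25C b (465 of all genes).

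Among the 102 low genes, fewer reads limited what could be seen. Their summed level was 8.59 and 10.8 RPKM at 25C and 8.35 and 8.09 at 19C in Bully, against 6.99 and 9.05 at 25C and 10.6 and 11.5 at 19C in CantonS. All 4 Bully libraries lay below all 4 CantonS libraries for 13 of them (12.7%), and above for 3 (2.94%). Over all 6760 genes below the threshold these shares were 3.65% and 4.88%. These 16 genes are named after their values were seen. The lower ones were Lcp1, Lcp4, Lcp65Ab1, Lcp65Ab2, Lcp65Ac, Cpr72Ea, Cpr72Eb, Cpr78Ca, Edg91 and the Tweedle genes Twdlalpha, TwdlBeta, TwdlY and TwdlZ. The higher ones were Cpr47Eg, Cpr49Ab and Cpr50Cb. Twdlalpha overlaps CG32568 on the same strand, with means of 0.141 and 0.132 RPKM.

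The levels behind these separations were small. Lcp1, a larval cuticle protein gene, had 0 to 0.0284 RPKM in Bully and 0.109 to 0.151 RPKM in CantonS. Cpr72Eb, a neighbour by name of the lens gene Cpr72Ec, had 0 reads over the 4 Bully libraries and 22 over the 4 CantonS libraries. Cpr49Ab had 0.734 and 1.07 RPKM at 25C and 0.614 and 0.485 at 19C in Bully, against 0.148 and 0.0912 at 25C and 0.229 and 0.259 at 19C in CantonS. This came from 33 to 77 reads in a Bully library and 6 to 26 reads in a CantonS library.

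Fitted with no filter, which tests all 15240 rows, the average over temperatures called 13 of the 121 cuticle protein genes, 1 higher and 12 lower, against a background of 5.68% (3.04% higher, 2.64% lower). Of the low genes, Cpr49Ab was the higher one, by 0.83 (SE 0.10, limma adjusted p = 0.0173). The lower ones with low values were Lcp1 (-0.28, adjusted p = 0.0054), Lcp4, Lcp9, Cpr47Ea, Cpr72Ea, Cpr72Eb and TwdlZ, at differences of -0.09 to -0.37 on a scale that the added 0.5 compresses. Lcp9 rests on 4 reads over the 8 libraries, and it overlaps the RNA gene CR44067 on the opposite strand, with a mean of 1.08 RPKM. Cpr47Ea overlaps the receptor gene Or47a on the opposite strand, which had a mean of only 0.0208 RPKM.

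Genes that make, cut, tan and regulate the cuticle were counted beside the structural proteins. Over all tested genes, 3.44% were higher and 8.07% lower in Bully at 19C, and 4.38% and 4.41% on average. Of 19 genes of chitin synthesis and assembly, 10 were tested, and 1 was higher and 0 lower in Bully at 19C and on average. This was serp, a chitin deacetylase, with 2.03 and 2.52 RPKM at 25C and 2.75 and 2.69 at 19C in Bully, against 1.49 and 1.26 at 25C and 1.07 and 1.60 at 19C in CantonS. Its difference was 0.83 at 19C (SE 0.17, limma adjusted p = 0.019) and 0.70 on average (adjusted p = 0.00829). The 19C call was lost with no filter, with only the groups compared and without either Bully 19C library. Of 19 chitinases and related genes, 11 were tested, and 2 were higher and 1 was lower at 19C. Among these, the chitinase gene Cht5 was higher by 0.89 (adjusted p = 0.0282) and Idgf5, of the chitinase-like growth factors, was lower, at -0.60 (adjusted p = 0.0257). Each of these 2 calls was lost without 3 of the libraries at 19C. For Cht5 these were Bully 19C b and both CantonS libraries, and for Idgf5 both Bully libraries and CantonS 19C b. Both calls were also lost with only the groups compared, that of Cht5 with no filter and that of Idgf5 with the length trend removed.

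Of 24 cuticle tanning genes, 15 were tested, with 2 higher and 0 lower in Bully at 19C and 3 higher and 0 lower on average. The shares of all tested genes were 3.44% higher and 8.07% lower at 19C, and 4.38% and 4.41% on average. The gene b, which makes beta-alanine, had 30.3 and 27.7 RPKM at 25C and 22.5 and 29.1 at 19C in Bully, against 16.2 and 21.7 at 25C and 8.24 and 7.48 at 19C in CantonS. The gene e, whose enzyme joins beta-alanine to dopamine, had 35.2 and 20.5 RPKM at 25C and 21.4 and 34.1 at 19C in Bully, against 28.8 and 26.4 at 25C and 8.80 and 7.49 at 19C in CantonS. The CantonS 19C libraries were the low ones for both. At 19C the gene b differed by 1.64 (limma adjusted p = 0.00171), a call that held under every alternative. The gene e differed by 1.68 (limma adjusted p = 0.00999), a call lost with no filter and without Bully 19C b or CantonS 19C b. On average the call of b held under every alternative, while that of e (0.82, limma adjusted p = 0.0357) was lost under 7 of 15. The remaining averaged call was Dat (0.45, limma adjusted p = 0.0463), near the threshold and not followed under the alternatives. In CantonS the genes b and e were higher at 25C than at 19C, by 1.20 for b (adjusted p = 0.0372) and 1.70 for e (adjusted p = 0.0375). These temperature calls were lost with no filter, under both rescaling and removal of the length trend, where no gene of the table passed, and without any Bully library, CantonS 19C b or CantonS 25C a, with adjusted p up to 0.163 and 0.216. That of b was also lost with only the groups compared. The product of e also joins beta-alanine to histamine in head glia.

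Of 21 structural genes of cuticle and apical matrix outside the naming rule, 6 were tested. Of these, 0 were called at 25C, 1 was higher at 19C and 2 were higher on average. The zona pellucida domain gene tyn was higher by 0.41 at 19C (limma adjusted p = 0.0452), a call lost under 9 of 15 alternatives. On average tyn was higher by 0.35 (limma adjusted p = 0.0256), a call lost without any 1 of the 4 Bully or 2 CantonS 25C libraries. The other gene higher on average was retinin, counted already among the lens genes. Over all tested genes, 3.03% were called at 25C, 3.44% were higher at 19C and 4.38% were higher on average. Of 14 regulators of cuticle genes, 12 were tested and 0 were called in any of the 7 comparisons, against 0% to 11.5% of all tested genes. Cpr, the reductase gene set apart at the start, had 46.0 and 49.4 RPKM at 25C and 47.9 and 53.2 at 19C in Bully, against 36.0 and 42.1 at 25C and 38.2 and 42.8 at 19C in CantonS. Its Bully libraries lay above its CantonS libraries with no overlap. Even so, Cpr did not pass at 25C (0.29, limma adjusted p = 0.362), at 19C (0.32, adjusted p = 0.177) or on average (0.30, adjusted p = 0.115).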

How the data were processed

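RNA sequencing of 8 whole-head libraries in 4 groups was used. The deposited values are RPKM per gene, calculated by the authors. TopHat2 2.0.4, edgeR 3.8.6 and the builds dm3 and BDGP5 are named per the submitters' processing notes. The treatment of multiply matching reads, strand and library scaling is not given in the sources used here. Columns carry group names but no replicate number, so a and b follow column order as names only. Effective library sizes came from the steps between RPKM values, which gave whole reads within 0.001 for 8853 of 13921 genes (63.6%); with so few, no count test was run. Limits for a count of 0 use 3 reads and cover counting error only.

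Using limma 3.58.1 (R 4.3.3), the 8 libraries entered a single model of 4 group means (mean-variance trend, 4 residual degrees of freedom, prior 4.47), two-sided, for 7 comparisons, each adjusted by Benjamini-Hochberg over 8480 genes. The labels call the replicates independent and biological and say no more of their source. The model was tested on simulated data. All 121 symbols were matched to the BDGP6 annotation for chromosome and exon length, and 99.4% of tested genes had a length. Named genes were every cuticle protein gene that passed in any comparison, the 5 with the highest mean, and up to 2 called members of each other list by test statistic; others are named with the reason. Members and lists were chosen with earlier results of these data known. Alternatives were other pseudocounts, no filter, a filter of 5 RPKM, median-of-ratios rescaling, removal of the length trend, fits of only the groups compared, and leaving out each library.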

Additional observations from a re-analysis of the deposited data

How the results depend on the processing

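At 25C, 6 were called, 2 with no filter, 3 with only the groups compared, and 0 to 5 as each library was left out. At 19C, 6 were called, and 2 to 9 as each library was left out, with 2 without Bully 19C a (156 of all genes) and 9 without CantonS 19C a (1989 of all genes), against 976 of all genes before. The average over temperatures gave 8, against 13 with no filter and 6 to 8 as each library was left out. The no-filter calls were in part other genes. Both at 25C were genes below 1 RPKM outside the 19, and so were 1 higher and 7 lower of the 13 on average. Neither Cpr72Ec nor Cpr60D kept its averaged call with no filter. Temperature in CantonS gave 2, against 1 with a pseudocount of 0.1 or a filter of 5 RPKM, and 0 with no filter, median-of-ratios rescaling, the length trend removed or only the groups compared. Leaving out each library gave 0 to 5 there, 0 to 3 for temperature averaged over lines and 0 to 1 for the interaction. The cause was not tested; leaving out 1 library leaves a group with a lone library that is assumed to vary like the others. Of 618 values of named genes under alternatives, 468 kept direction and side of the threshold, 145 lost the call, 1 gained it and 4 turned sign. The last were values of Cpr65Au (-0.011 at 25C with the length trend removed; -0.014 to 0.22 at 25C and -0.19 to 0.50 at 19C as each library was left out) and Cpr49Ae (-0.023 to 0.45 at 19C). The gain was Cpr65Au at 19C with the length trend removed (0.65, limma adjusted p = 0.0317). No paired analysis was possible because the columns of the table carry no replicate number. Depth limits the genes below 1 RPKM, where 3 reads in 1 kb were worth 0.0255 to 0.0631 RPKM.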
